A study of Oryza sativa with 6 samples.

Results

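Protein phosphatases of type 2C (PP2Cs) are enzymes that need magnesium or manganese and remove phosphate from serine and threonine of other proteins. The genes described here are those of rice whose symbol or synonym is PP2C followed by a number. The reference names 60 such genes, and 55 of them could be read from a probe set listed for that gene alone, out of 17905 genes of all kinds read in this way. They were measured in detached leaves of the rice cultivar Nagina22 (N22) on 6 Affymetrix arrays. Each array was made from 5 g of the third leaf of 30-day-old plants, kept in 35 ml of solution in darkness. In the 3 BA-treated samples this solution contained 2 mg/ml of the synthetic cytokinin 6-benzyl adenine (BA) with NaOH and tween20, and the 3 untreated samples had NaOH and tween20 only. The extraction protocol and the methods give 72 h of darkness and a further label field gives 2 h for the same samples; they are treated here as 72 h of dark-induced senescence (DIS). All arrays are of 1 genotype and 1 time, with no array of fresh leaves, so whether BA lowered a transcript or untreated leaves gained it cannot be told.

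Plants have many more PP2Cs than animals do. Those of clade A are the best known, since they are the brake on signalling by abscisic acid (ABA), a hormone that promotes leaf senescence. Without ABA they hold SnRK2 kinases (SAPKs in rice) inactive, and with ABA the receptors of the PYR/PYL/RCAR family bind and block them, so that the kinases can phosphorylate transcription factors such as those of the ABF type. Transcripts of clade A genes are themselves raised by ABA in many plants, in a negative feedback. PP2Cs of other clades act on MAP kinases, on receptor kinases of immunity and growth, and on targets that are less well known. The question of the comparison was which transcripts differ between leaves whose senescence is delayed by the cytokinin and leaves that senesce without it.

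The deposited value is 1 signal for a probe set on an array. It is linear, and a constant of about 16 had been added to it, so that signals of about 16 to 25 are close to the lowest that can occur and fold changes of dim transcripts are understated. Median signals of the arrays were 22.5 to 23.3. Differences are given as log2(signal + 1) of BA-treated minus untreated, with the SE and with p-values from limma adjusted over all 57258 rice probe sets. Signals of different probe sets cannot be compared as amounts of transcript. The 28S rRNA control read 47.1, 42.1 and 346 on untreated replicates 1 to 3, and 33, 28.4 and 35.4 on the BA-treated ones. Control probe sets for poly-A RNA had a mean log2 signal of 6.83, 7.43 and 8.07 untreated and of 5.85, 6.73 and 6.51 with BA. Both controls were thus higher on every untreated array than on any BA-treated one, and highest on untreated replicate 3. What part this has in the differences between the groups was not tested. BA-treated replicates 2 and 3 were nearly alike (SD of their log2 difference 0.16 over all probe sets, against 0.416 to 0.615 for the other pairs). The leaf markers CAB2R, rbcS, rca and petC had mean signals of 202 to 1381, the seed markers GLUA1, GLUA2 and RAG1 of 18.9 to 69.9, and the root markers Lsi1, Lsi2 and PT6 of 18.0 to 27.1. In whole leaves, fewer cells of a type and less RNA per cell cannot be told apart.

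No PP2C gene passed the test adjusted over all probe sets, and the lower mean log2 signal of the family in BA-treated leaves rested on 2 of the 3 untreated arrays. Averaged over the 55 genes, log2(signal + 1) was 6.92, 7.01 and 6.57 on untreated replicates 1, 2 and 3 and 6.595, 6.66 and 6.64 on the BA-treated ones, so that untreated replicate 3 was below every BA-treated array. On that array 15 of the 55 members were under all 3 BA-treated signals. The same share over all genes was not counted, so this only describes the members. Among the untreated arrays, replicate 3 was the lowest for 21 members and the highest for 14. A shift of the family as a whole was not tested. The log2 difference was below 0 for 34 of 55 genes (61.8%), beside 51% of all probe sets and 50.7% of all genes read. Its median was -0.16 over the 55 genes and -0.0035 over all probe sets, and single genes ranged from -1.01 (PP2C06) to 0.78 (PP2C12). The sign was the same with any 1 array left out for 24 genes below 0 and 7 above, and changed for the other 24. In the limma fit 0 of 55 members had an adjusted p under 0.05, where 0.159% of all probe sets did (0.0926% higher and 0.0664% lower) and 0.29% of all genes read (0.156% higher and 0.134% lower). The pooled-variance test also called 0 members, but it called only 1 of all probe sets, so it could hardly have called a member. At an unadjusted p under 0.05 there were 6 members lower with BA (10.9%, beside 4.25% of all probe sets and 7.84% of all genes read) and 1 higher (1.82%, beside 4.24% and 6.42%).

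The study selected genes at over 1.5-fold and a p under 0.05, with no adjustment stated. With unadjusted p-values from limma these thresholds were passed by 5 members that were lower with BA, PP2C06, PP2C09, PP2C11, PP2C40 and PP2C69. These are 9.09% of the family, beside 2.16% of all probe sets and 4.74% of all genes read. Most members are well above the constant, and of genes with a mean signal over 50 the share was 5.98%, against 4 of the 40 members over that signal (10%). Only PP2C78 passed the same thresholds as higher (1.82%, beside 1.73% of all probe sets and 3.18% of all genes read). The 3 signals with BA all lay below the 3 without it for 8 members (14.5%, beside 7.3% of all probe sets and 10.1% of all genes read), namely PP2C06, PP2C09, PP2C11, PP2C28, PP2C40, PP2C48, PP2C69 and PP2C73. The groups were apart in the other direction for PP2C78 alone (1.82%, beside 6.71% and 7.61%), and overlapped for the remaining 46. The count of 5 depended on single arrays. It was 13 without untreated replicate 3 (23.6%, beside 6.56% of all genes read). Without BA-treated replicate 1 it was 3 (5.45%, beside 3.99%). When any of the other arrays was left out it was from 4 to 6 (7.27 to 10.9%, beside 3.71 to 5.65%).

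**Figure D1:**
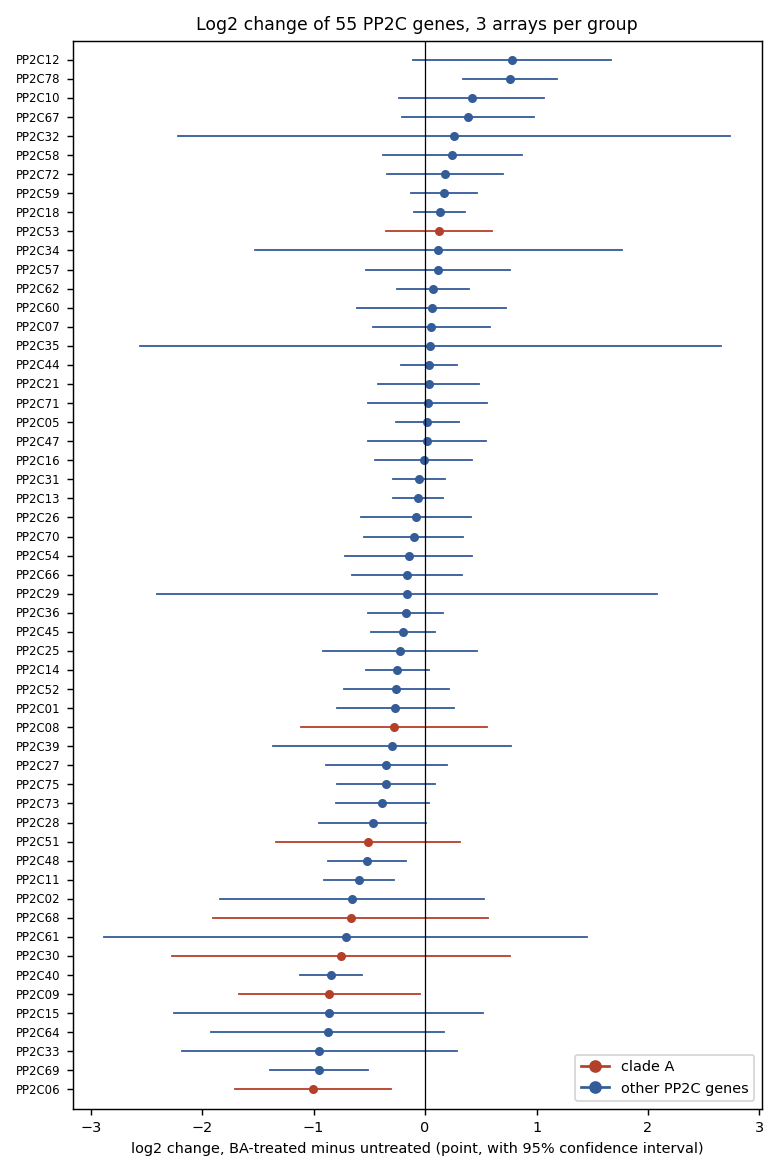
Log2 difference in signal, BA-treated minus untreated, for each of the 55 PP2C genes (points, 3 arrays a group), with the 95% confidence interval from limma (lines) and clade A genes in red. The points run from -1.01 for PP2C06 to 0.78 for PP2C12, 34 lie below 0, and the narrowest intervals away from 0 belong to genes such as PP2C40 and PP2C11.

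Clade A, the group of the ABA co-receptors, is usually counted as 10 genes in rice, and 7 of them were read. PP2C37 was not matched to a gene of that name, and PP2C49 and PP2C50 (ABIL3) have no probe set listed for them alone, so these are not analysed here. Of the 7, 6 were below 0 (85.7%), among them the dim PP2C08, with a median log2 difference of -0.67. This stands beside 28 of the 48 other members (58.3%) with a median of -0.09, and 50.7% of all genes read. The number of the 7 below 0 was between 5 and 7 when any 1 array was left out. Their mean log2(signal + 1) was 6.39, 6.34 and 5.625 on untreated replicates 1 to 3 and 5.53, 5.58 and 5.55 on the BA-treated ones. The difference thus rested mostly on untreated replicates 1 and 2. Whether clade A differs from the other members was not tested.

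PP2C06, also named ABIL1 after the ABI phosphatases of Arabidopsis, had signals of 185, 135 and 83.0 in untreated replicates 1, 2 and 3 and of 56.7, 66.2 and 66.1 with BA. Every BA-treated array lay below every untreated one, and the untreated arrays were more spread. The means were 134 ± 50.8 (SD, n = 3) without BA and 63.0 ± 5.49 (SD, n = 3) with it, 2.01-fold apart, at a log2 difference of -1.01 (SE 0.286, adjusted p = 0.37). PP2C09 gave 111, 43.9 and 84.9 untreated and 41.0, 38.2 and 43.0 with BA. The BA-treated arrays were again low and alike, but untreated replicate 2 was only just above them. The log2 difference was -0.86 (SE 0.331, adjusted p = 0.55), and PP2C09 is read from a probe set of the _a_at class, whose probes match several transcripts of a gene.

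PP2C30 and PP2C68 shared another layout. PP2C30 had signals of 266, 174.5 and 50.02 in untreated replicates 1 to 3 and of 107, 66.4 and 67.1 with BA. PP2C68, also named SIPP2C1 or OsPP108, had 163, 141 and 43.1 untreated and 54.7, 64.2 and 69.8 with BA. In both, untreated replicates 1 and 2 were above every BA-treated array and untreated replicate 3 was below every one. The log2 differences were -0.75 (SE 0.619, adjusted p = 0.86) for PP2C30 and -0.67 (SE 0.503, adjusted p = 0.85) for PP2C68.

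The other clade A genes were dimmer. PP2C51 read 28.02, 73.6 and 47.0 untreated and 34.95, 33.4 and 28.05 with BA, with overlapping groups and a log2 difference of -0.51 (SE 0.338, adjusted p = 0.82). Its second probe set gave -0.10. PP2C08 stood at 43.8 on untreated replicate 2 and at 17.1 to 21.0 elsewhere, so that its log2 difference of -0.28 (SE 0.34, adjusted p = 0.91) rests on that array and was 0.12 without it. PP2C53 (ABIL2) was the exception in direction, at 52.8, 44.0 and 49.4 untreated and 40.5, 67.7 and 54.0 with BA. Its groups overlapped, and the log2 difference of 0.12 (SE 0.194, adjusted p = 0.93) was -0.05 without BA-treated replicate 2.

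**Figure D2:**
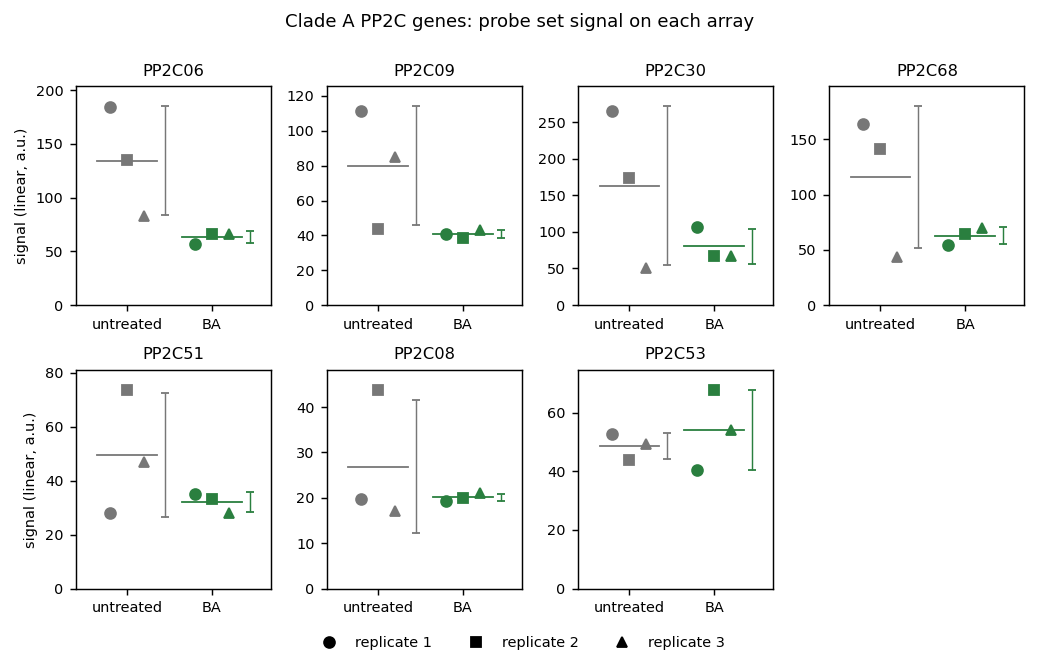
Signal on each array (points, linear axis) for the 7 clade A genes, untreated and BA-treated, with the mean of 3 arrays (line) and the SD (bar). PP2C06 and PP2C09 have all BA-treated arrays below the untreated ones, PP2C30 and PP2C68 have 1 untreated array, replicate 3, below all of the others, and PP2C53 shows overlapping groups.

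Outside clade A, the gene with the smallest p of the whole family was PP2C40, also named OsPP65. Its signals were 143, 149 and 169 untreated and 75.0, 90.5 and 89.8 with BA. The groups were far apart relative to the spread within each, at 154 ± 13.7 (SD, n = 3) against 85.1 ± 8.72 (SD, n = 3), which is 1.80-fold. The log2 difference was -0.85 (SE 0.113, unadjusted p = 0.0003, adjusted p = 0.088), and it lay between -0.89 and -0.76 whichever array was left out. With arrays weighted by their quality, a setting that gives most weight to BA-treated replicates 2 and 3, PP2C40 was the only member with an adjusted p under 0.05 (adjusted p = 0.046 at a log2 difference of -0.77). Other settings gave less: over all of them its adjusted p ran from 0.046 to 0.52. In limma with a variance trend it was 0.26, at an SE of 0.233. It was 0.32 in the pooled-variance test and 0.41 in limma with BA-treated replicates 2 and 3 averaged.

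PP2C69 read 34.3, 52.8 and 34.2 untreated, and 20.5, 19.8 and 19.7 with BA. The BA-treated signals were close to the constant, so the fold between the groups is a low estimate. The log2 difference was -0.95 (SE 0.179, adjusted p = 0.16), second in size to that of PP2C06. PP2C11 was far brighter on its probe set, at 370.5, 464 and 495 untreated and 276.5, 289 and 308 with BA. No array of either group came between those of the other, and the log2 difference of -0.59 (SE 0.127, adjusted p = 0.22) was 1.51-fold, just past the threshold of 1.5. PP2C48 fell just outside it at 1.44-fold, with 83.3, 66.8 and 83.9 untreated and 46.1, 60.95 and 55.2 with BA. Its log2 difference was -0.52 (SE 0.144, unadjusted p = 0.011, adjusted p = 0.35), but the gene has 2 further probe sets, dimmer ones, that gave -0.26 and 0.10.

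On the higher side, PP2C78 had signals of 24.3, 23.5 and 23.3 untreated and 31.0, 46.6 and 47.3 with BA. The untreated arrays were nearly equal and near the constant, and all BA-treated arrays were above them. The means were 23.7 ± 0.546 (SD, n = 3) and 41.6 ± 9.19 (SD, n = 3), with a log2 difference of 0.76 (SE 0.172, adjusted p = 0.24). PP2C12, the member with the largest log2 difference above 0, is given here because of its value. Its signals were 74.4, 77.6 and 70.0 untreated and 69.5, 172 and 173 with BA. BA-treated replicates 2 and 3 stood over 2-fold above the untreated arrays, whereas BA-treated replicate 1 was below all of them, and the log2 difference was 0.78 (SE 0.363, adjusted p = 0.67). Without BA-treated replicate 1 both genes passed the test, PP2C12 at 1.21 (adjusted p = 0.027) and PP2C78 at 0.96 (adjusted p = 0.037), but the BA group then consists of the pair of arrays that were nearly alike, and PP2C12 is read from a probe set of the _s_at class, which can match other genes.

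**Figure D3:**
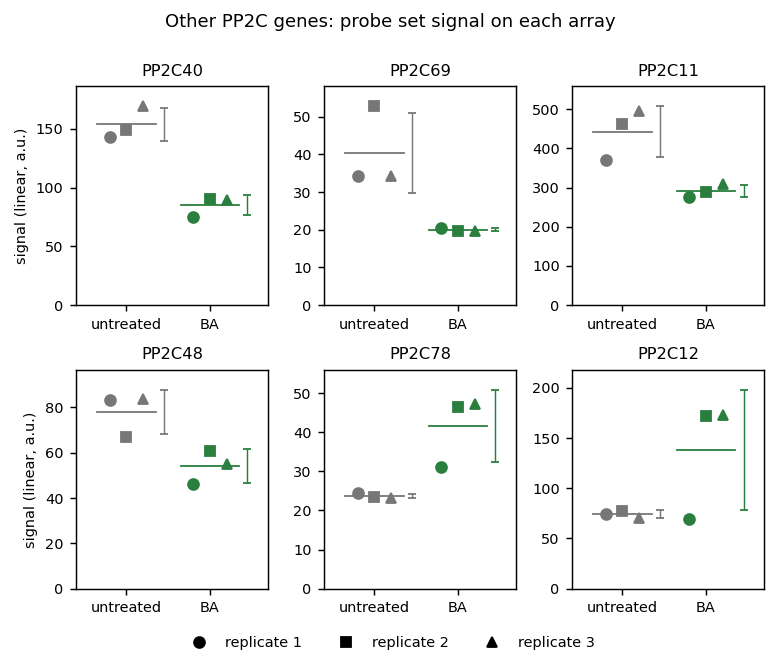
Signal on each array (points, linear axes) for PP2C40, PP2C69, PP2C11, PP2C48, PP2C78 and PP2C12, untreated and BA-treated, with the mean of 3 arrays (line) and the SD (bar). The first 4 genes have every BA-treated array below every untreated one, PP2C78 has them above, and PP2C12 has 2 BA-treated arrays at 172 and 173 and 1 at 69.5.

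Some PP2C genes varied more between untreated arrays than between the groups. On untreated replicate 3, 9 members were over 2-fold below both of the other untreated arrays, a criterion chosen after the values were seen. They are 16.4% of the family, beside 1.94% of all probe sets, 4.12% of all genes read and 6.68% of genes with a mean signal over 50, and no member was over 2-fold above, beside 0.824% of all probe sets and 1.09% of all genes read. The 9 genes are PP2C02, PP2C15, PP2C29, PP2C30, PP2C32, PP2C34, PP2C35, PP2C61 and PP2C68, and the gap to the nearer untreated array ran from 2.51-fold to 9.40-fold. Since the array was singled out for these values, the count is a description.

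The widest gaps belonged to PP2C32, PP2C35 and PP2C29. PP2C32 read 708.5, 1219 and 75.4 untreated and 588, 427 and 451 with BA. PP2C35, known as XB15, dephosphorylates the rice immune receptor kinase XA21. It read 567, 1167 and 63.4 untreated and 561, 281 and 296 with BA. PP2C29 gave 583, 761.5 and 71.4 untreated and 430, 233 and 226 with BA. In all of them untreated replicates 1 and 2 were the highest arrays and untreated replicate 3 the lowest of the 6, with the BA-treated leaves in between.

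PP2C34, also named BIPP2C2 after a defence activator that induces it, had 878, 1334 and 233 untreated and 1075, 585 and 555 with BA. PP2C61 had 124, 379 and 30.9 untreated and 105, 52.98 and 59.2 with BA. PP2C02 had 661, 738 and 263 untreated and 517, 256 and 247.5 with BA. Here BA-treated replicate 1 was also 1.5-fold or more above its other replicates. Over the whole family BA-treated replicate 1 was over 1.5-fold above both for 8 members and over 1.5-fold below both for 8. These shares were not counted over all genes, so they only describe the members. PP2C15 had 143, 276 and 55.3 untreated and 87.9, 62.2 and 65.4 with BA. The order untreated 2, untreated 1, BA-treated 1, BA-treated 2 and 3, untreated 3 was shown by 5 members, PP2C15, PP2C29, PP2C32, PP2C35 and PP2C61 (9.09%, beside 0.95% of all probe sets and 1.59% of all genes read). All 5 have a mean signal over 50, where 2.27% of genes showed it. The order was read off these members before it was counted, so this too is a description.

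**Figure D4:**
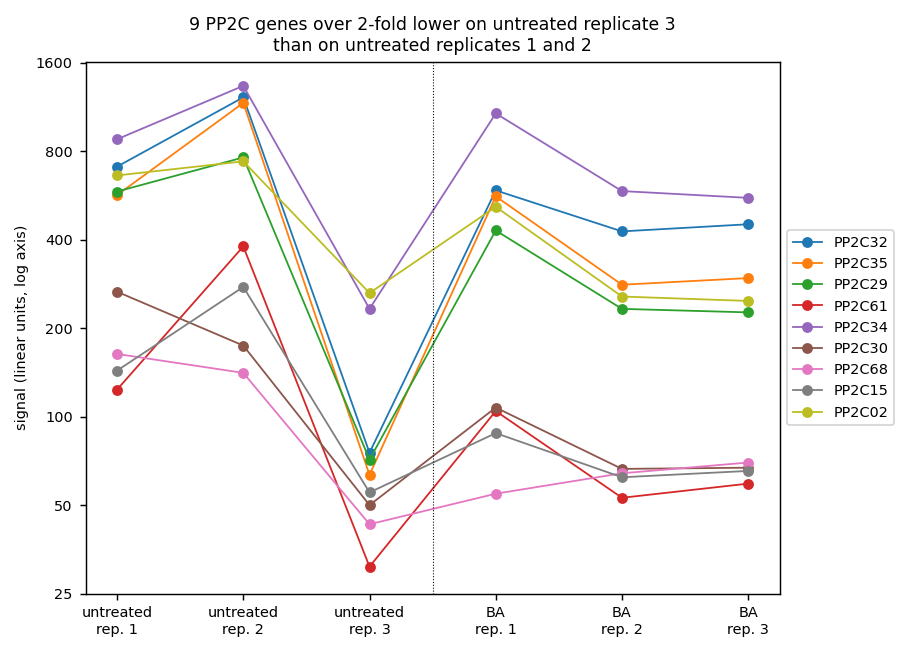
Signal on each of the 6 arrays (log axis) for the 9 PP2C genes that were over 2-fold lower on untreated replicate 3 than on untreated replicates 1 and 2; lines join the arrays of a gene for the eye only. PP2C32 drops from 708.5 and 1219 to 75.4, and 5 of the genes share 1 order of the arrays.

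These arrays decide the sign of several differences. Over all 6 arrays the log2 difference was 0.26 for PP2C32 (SE 1.01), 0.05 for PP2C35 (SE 1.06) and 0.12 for PP2C34 (SE 0.672), and without untreated replicate 3 it was -0.94, -1.17 and -0.62. For PP2C29 it went from -0.17 to -1.23, for PP2C61 from -0.71 to -1.64, for PP2C15 from -0.86 to -1.48 and for PP2C02 from -0.66 to -1.12. The clade A genes moved in the same way, PP2C30 from -0.75 to -1.45, PP2C68 from -0.67 to -1.26 and PP2C06 from -1.01 to -1.31. Since the 9 genes were selected for low signals on that array, a lower value without it follows from the selection, and no test is drawn from it.

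Counted over the whole family without untreated replicate 3, 13 members were lower at the thresholds of the study (23.6%, beside 3.1% of all probe sets and 6.56% of all genes read under the same setting), and 38 of 55 were below 0, beside 47.5% of all genes read. Of the 13, 8 are among the 9 genes selected for low signals on that array, so the share is raised by the selection and is no independent result. PP2C34 was not among them (unadjusted p = 0.148). The other 5 were PP2C06, PP2C40, PP2C69, PP2C33 and PP2C64. PP2C33 read 39.2, 105 and 24.3 untreated and 24.8, 23.2 and 23.03 with BA. PP2C64 read 190.3, 334.8 and 101 untreated and 84.7, 118 and 103 with BA. Both stood highest on untreated replicate 2 and were near their BA-treated level on untreated replicate 3. Even so no member had an adjusted p under 0.05 in limma, the lowest being 0.080 for PP2C68 and 0.097 for PP2C06. PP2C68 is among the 9 selected genes. PP2C06, PP2C33 and PP2C64 were also lowest on untreated replicate 3 among the untreated arrays, so their values without it are no independent result either. PP2C09 and PP2C11 no longer passed, the first at an unadjusted p of 0.11 and the second at a log2 difference of -0.51. The high 28S rRNA signal of untreated replicate 3 stands beside these values, and its part in them was not tested.

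**Figure D5:**
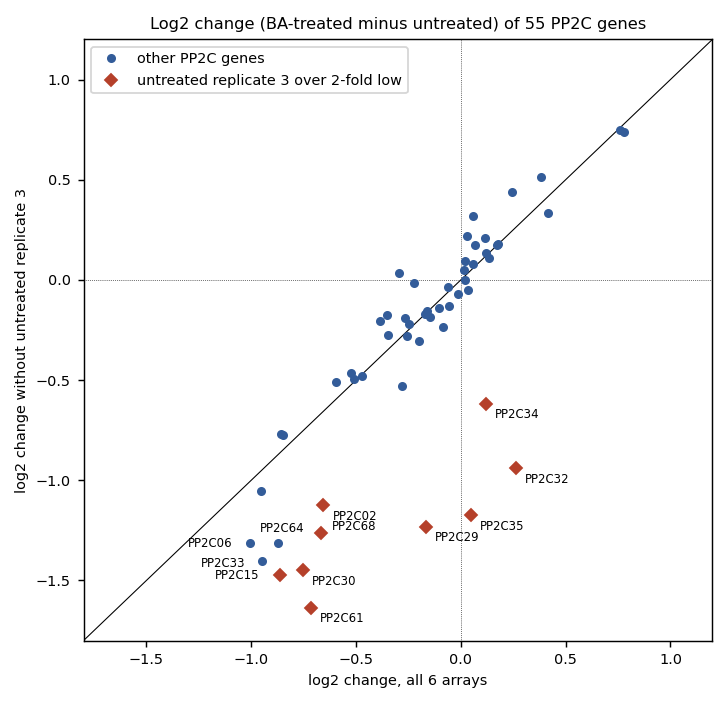
Log2 difference in signal, BA-treated minus untreated, of the 55 PP2C genes over all 6 arrays (horizontal axis) and without untreated replicate 3 (vertical axis). PP2C32, PP2C34 and PP2C35 lie above 0 on the horizontal axis and below 0 on the vertical one, whereas PP2C40 stays near the diagonal at -0.85 and -0.78.

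The differences of the remaining 33 members ran from -0.47 for PP2C28 to 0.42 for PP2C10, with 18 below 0 and 15 above. Of these 33, 27 were within 0.3 of 0, and the lowest adjusted p from limma was 0.60. PP2C28 read 309, 357 and 324.5 untreated and 176, 280 and 272.5 with BA. It and PP2C73 (38.2, 35.0 and 53.8 untreated, 34.4, 30.8 and 29.9 with BA) had groups apart but differences under 1.5-fold. PP2C10 read 621, 427.5 and 434 untreated and 924, 579 and 512 with BA, high on the first replicate of each group. PP2C45 gave 2749, 2664 and 2171 untreated and 2354, 2157 and 2066 with BA, a log2 difference of -0.20 (adjusted p = 0.79).

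Of these members with a mean signal of 50 or more, PP2C01, PP2C14, PP2C26, PP2C27, PP2C39, PP2C52, PP2C54, PP2C66 and PP2C70 were also below 0, and PP2C05, PP2C07, PP2C44, PP2C47, PP2C57, PP2C58, PP2C60, PP2C62, PP2C67, PP2C71 and PP2C72 were above it, all with overlapping groups. Among the dim ones, PP2C13 (DCW11, a phosphatase linked to cytoplasmic male sterility), PP2C16, PP2C25, PP2C31, PP2C36 and PP2C75 were below 0 and PP2C18, PP2C21 and PP2C59 above it. With PP2C08, the 6 genes with a mean signal under 25 were PP2C16, PP2C18, PP2C31, PP2C36 and PP2C59, too close to the constant for a difference to be read. The members not read at all were PP2C41, PP2C49, PP2C50, PP2C65 and PP2C77.

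Several probe sets were listed for 12 of the members, and in 8 of these all lay on the same side of 0. The exceptions were PP2C48, PP2C66, PP2C73 and PP2C75. For PP2C73 the brightest probe set gave -0.38 and the others 0.34, -0.16 and -0.06, and for PP2C75 the values were -0.35, 0.30 and -0.06. For 9 members, among them PP2C09, PP2C12 and PP2C34, the probe set used was of a class (_a_at, _s_at or _x_at) that is not made only of probes particular to 1 transcript.

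The other genes of the ABA pathway, taken from lists of 28 named genes of which 26 were measured, had 1 gene that passed the adjusted test. Of the 26, 17 were below 0 (65.4%, beside 50.7% of all genes read), with a median log2 difference of -0.09. In limma 1 was called lower (3.85%, beside 0.134%) and 0 higher at an adjusted p under 0.05, and at an unadjusted p under 0.05 there were 2 lower (7.69%, beside 7.84%) and 1 higher (3.85%, beside 6.42%). The 1 receptor gene that the reference names, PYL11, had 300, 220 and 255 untreated and 366, 293 and 283 with BA, with overlapping groups and a log2 difference of 0.28 (SE 0.155, adjusted p = 0.75). Among the SAPK kinases, which clade A PP2Cs inactivate, 8 of 10 were below 0 with a median of -0.21. SAPK7 alone had an unadjusted p under 0.05, at 114, 84.7 and 71.4 untreated and 45.4, 63.4 and 61.5 with BA (log2 difference -0.64, SE 0.211, adjusted p = 0.46).

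Downstream of the kinases, the bZIP factor gene ABF2 was the called gene of these lists. It had 500.1, 418 and 324 untreated and 135, 125 and 122 with BA, with no overlap (log2 difference -1.67, SE 0.166, adjusted p = 0.044), and that call was lost when any array except untreated replicate 3 was left out. The 2 other factors measured, TRAB1 and VP1, gave -0.11 and -0.09. In ABA metabolism, ABA8OX2, for an enzyme that breaks ABA down, had 120, 207 and 288 untreated and 895, 1499 and 1363 with BA, with all BA-treated arrays above the untreated ones (log2 difference 2.66, SE 0.358, adjusted p = 0.091). ABA8OX1 had 805, 2333 and 67.4 untreated and 307, 237.5 and 217 with BA, the same order of arrays as PP2C32 and PP2C35. Of the 9 ABA-responsive genes, mostly LEA proteins and dehydrins, 5 (LEA3, RAB16B, RAB16C, RAB16D and rab25) had a mean signal under 25, too close to the constant for a difference to be read. The other 4 were Dhn1, EM, RAB21 and salT, which encodes a lectin, and 1 of them, Dhn1, was below 0. The smallest p of the list was that of RAB16B (log2 difference -0.24, SE 0.103, unadjusted p = 0.058, adjusted p = 0.62). Its signals of 20.1, 21.6 and 24.5 untreated and 17.0, 19.8 and 18.6 with BA were close to the constant.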

How the data were processed

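Total RNA of leaves was converted to biotinylated cRNA and hybridized to 6 arrays, 3 per group, which the methods call biological replicates. The authors deposited an intensity for every probe set of an array, summarised with PLIER and variance stabilization, which leaves a constant in the values. RMA also appears in the submitters' processing notes. Its role, tool versions and any scaling of arrays to each other were not given in the sources used here. Intensities were used as log2(signal + 1) in limma 3.58.1 (R 4.3.3, lmFit and eBayes, two-sided), with p-values adjusted by Benjamini-Hochberg over 57258 rice probe sets (threshold 0.05) and 123 control probe sets left out. The fit was tested on data simulated with independent errors. These held no nearly alike pair of arrays and no array that stood apart, so the dependence on single arrays was not examined there. The number of arrays limits the precision.

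Probe sets were named through the platform annotation, whose gene identifiers were looked up in the RefSeq names of assembly ASM3414082v1. Among probe sets listing a gene alone, the brightest over all arrays was used. Signals on every array are given for members with an unadjusted p under 0.05, or with groups apart and over 1.5-fold, and for clade A; for further members they were added after the values were seen. In the ABA lists, genes with an unadjusted p under 0.05 or else the smallest p are named, and ABA8OX1 was added after its values were seen. The members and lists were chosen with earlier results of these data known. Alternatives covered normalization, the offset, the spread estimate, array weights, filters, the replicate number as a block, probe sets averaged per gene, a pooled-variance test, the averaging of BA-treated replicates 2 and 3, and each array left out. No sequence is shown.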

Additional observations from a re-analysis of the deposited data

How the results depend on the processing

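No PP2C member passed the adjusted test except with array weights and without BA-treated replicate 1. In each setting most members lay below 0, though not always the same ones. With each array left out in turn, 0 to 142 probe sets (91 with all arrays), 0 to 2 members and 0 to 1 gene of the ABA lists were called. At over 1.5-fold and an unadjusted p under 0.05, 3 to 13 members were lower and 1 to 3 higher, and 33 to 39 were below 0. Over all genes read in the same settings, 3.71 to 6.56% were lower and 2.37 to 4.46% higher at these thresholds, and 45.1 to 55.1% were below 0. The sign of the log2 difference changed among those settings for 24 of the 55 members. Of these, 17 had a difference of at most 0.297 in size over all arrays, and the 7 others were PP2C08 (-0.53 to 0.12), PP2C29 (-1.23 to 0.46), PP2C61 (-1.64 to 0.15), PP2C32 (-0.94 to 1.06), PP2C34 (-0.62 to 0.64), PP2C35 (-1.17 to 0.92) and PP2C53 (-0.053 to 0.31). Array weights gave 280 probe sets called, 1 member called, 8 lower and 2 higher, with PP2C32 at -0.12, PP2C34 at -0.27 and PP2C35 at -0.46. Quantile normalization gave 2 members higher, beside 1042 of all probe sets. An offset of 16 gave 3 members lower and 0 higher, beside 857 and 712 of all probe sets, with PP2C35 at -0.012. The pooled-variance test called 1 probe set and put 802 lower at the fold and p thresholds, against 1236. Averaging BA-treated replicates 2 and 3 left 0 probe sets called. That averaging with untreated replicate 3 left out, chosen after seeing the data, also gave 0. It put 8 members lower and 0 higher, beside 1270 and 756 of all probe sets, with PP2C32 at -0.87, PP2C34 at -0.47 and PP2C35 at -1.01. In each case the cause was not tested.

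Whether the replicate numbers pair the samples could not be settled. The deviations of same-numbered arrays from their group means correlated at 0.42 for replicates 1 and 3, and at -0.01 for replicate 2. With the replicate number as a block, 0 probe sets, 0 PP2C members and 0 genes of the ABA lists were called, against 91, 0 and 1 without it. For the 26 members whose signals are given array by array, of 441 pairs of a gene and a setting, 17 changed sign and 3 passed the adjusted threshold anew (PP2C40 with array weights, PP2C12 and PP2C78 without BA-treated replicate 1). Signals near the constant of 16 limit what can be read for the dim members.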
